A study of Mus musculus with 7 samples.

Results

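The genes described here carry bile acids through intestinal epithelial cells and pass the bile acid signal on to the liver. They are a list of 8 genes, Fabp6, Slc10a2, Slc51a, Slc51b, Fgf15, Nr1h4, Nr0b2 and Gpbar1, chosen by name. All 8 were measured, each by 1 probe set that names a single gene, among 19938 genes on the arrays. RNA came from the intestine of 3-month-old mice on a C57Bl6/129Sv background, either Atg4b knock-out (KO) or wild-type (WT), and was hybridised to 7 one-colour Affymetrix arrays. Atg4b encodes a protease of the autophagy pathway. The groups were KO ileum and WT ileum of control mice (1 array each), KO colon and WT colon of mice treated with dextran sulfate sodium (DSS) for 7 days and then kept on water for 3 days (2 arrays and 1 array), and KO colon and WT colon of control mice (1 array each). DSS injures the colonic epithelium and causes colitis. The labels do not say whether the arrays are separate animals, so the spread behind each p-value is that between arrays and may be technical.

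Bile acids are made from cholesterol in the liver, reach the gut with bile and are recovered mostly in the terminal ileum. There Slc10a2 takes them up at the brush border, Fabp6 binds them in the cytosol, and the heterodimer of Slc51a and Slc51b releases them towards the blood. Bile acids also bind the nuclear receptor FXR, encoded by Nr1h4, which pairs with RXR and raises transcription of Fabp6, Slc51a, Slc51b, the repressor Nr0b2 (SHP) and the hormone Fgf15. Fgf15 acts on hepatocytes through Fgfr4 and its coreceptor Klb and lowers bile acid synthesis by Cyp7a1, while Gpbar1 (TGR5) is a bile acid receptor of the cell surface.

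The array-wide checks bear on every comparison below. The log2 intensity of Atg4b was 5.39 to 5.45 in the 4 KO arrays and 7.35 to 7.72 in the 3 WT arrays, without overlap. Xist was at 12.16 to 12.55 in the 3 DSS arrays and at 5.19 to 5.52 in the 4 control arrays, and the Y-linked Eif2s3y was at 4.28 to 4.39 in DSS arrays and at 9.39 to 9.77 in control arrays. DSS arrays thus had the female and control arrays the male pattern, so that DSS and the sex the arrays show cannot be told apart. The pattern went against the labelled sex in 3 arrays, which are all 3 WT arrays, and matched it in the 4 KO arrays. By the labels KO and WT differ in sex in every condition, while by the markers they share it within each condition. An adjustment for labelled sex is therefore not one for the sex the arrays show. Epithelial markers (10 of 10 measured) had summed intensities of 57932 in KO ileum, 62644 in WT ileum, 53690 to 55646 in the 3 DSS colons and 51642 to 53649 in the 2 control colons. The 8 measured colon identity genes summed to 3676 in KO ileum, 7669 in WT ileum, 19903 to 27290 in DSS colon and 39699 to 41765 in control colon, so the ileum arrays matched their label. In whole tissue, fewer cells of a type and less RNA per cell cannot be told apart.

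Promoters of the 4 transport genes and of the receptor gene are shown because these genes differed most between tissues or moved in colitis, and because FXR and intestinal transcription factors are known to act on genes of this kind. Each sequence is the 250 bases before the gene's start in RefSeq (GRCm38.p6), all on the minus strand, written 5′ to 3′ in the gene's direction. The windows are chr11:43601563-43601812 for Fabp6, chr8:5105288-5105537 for Slc10a2, chr16:32487880-32488129 for Slc51a, chr9:65422774-65423023 for Slc51b and chr10:89506659-89506908 for Nr1h4. Capitals mark matches to the motifs searched.
Fabp6: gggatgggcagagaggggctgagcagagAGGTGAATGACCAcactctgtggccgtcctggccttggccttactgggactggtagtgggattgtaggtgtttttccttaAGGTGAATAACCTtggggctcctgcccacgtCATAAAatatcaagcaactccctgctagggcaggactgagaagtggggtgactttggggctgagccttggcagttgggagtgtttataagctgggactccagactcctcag
Slc10a2: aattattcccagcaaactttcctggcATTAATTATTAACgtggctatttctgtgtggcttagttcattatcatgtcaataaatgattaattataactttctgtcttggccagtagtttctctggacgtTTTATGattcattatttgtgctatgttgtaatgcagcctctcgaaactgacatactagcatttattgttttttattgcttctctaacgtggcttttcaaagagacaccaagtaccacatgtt
Slc51a: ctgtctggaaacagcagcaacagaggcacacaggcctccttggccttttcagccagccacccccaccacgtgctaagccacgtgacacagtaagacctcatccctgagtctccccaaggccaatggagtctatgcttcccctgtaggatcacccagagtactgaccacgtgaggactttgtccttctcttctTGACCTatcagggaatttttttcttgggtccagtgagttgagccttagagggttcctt
Slc51b: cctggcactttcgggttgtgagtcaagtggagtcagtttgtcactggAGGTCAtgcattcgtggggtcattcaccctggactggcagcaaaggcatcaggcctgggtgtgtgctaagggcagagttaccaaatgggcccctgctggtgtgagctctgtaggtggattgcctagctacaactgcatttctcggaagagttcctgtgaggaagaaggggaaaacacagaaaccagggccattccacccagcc
Nr1h4: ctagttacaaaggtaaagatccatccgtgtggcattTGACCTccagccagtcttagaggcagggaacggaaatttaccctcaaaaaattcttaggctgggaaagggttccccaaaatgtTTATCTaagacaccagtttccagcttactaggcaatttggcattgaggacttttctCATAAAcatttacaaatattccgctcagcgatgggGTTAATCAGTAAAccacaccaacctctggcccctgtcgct
Motifs were searched on both strands in the windows of 7 members and of all 32851 promoters of the table. No window was available for Fgf15, so its promoter was not searched. The FXR inverted repeat, 2 copies of AGGTCA facing each other across 1 base, with up to 2 mismatches, occurred in 0.959% of all promoters and, among the members, in Fabp6, which held 2 matches. They are AGGTGAATGACCA, from 222 to 210 bases before the start, and AGGTGAATAACCT, from 142 to 130 bases before it. The hexamer AGGTCA, which is contained in the inverted repeat, occurred in 14.0% of all promoters and in those of Slc51a, Slc51b and Nr1h4. The CDX motif TTTATG (10.8% of all promoters) was present in Fabp6, Slc10a2 and Nr1h4. The HNF1 motif, 2 copies of GTTAAT facing each other across 1 base, with up to 2 mismatches (1.24%), was present in Slc10a2 and Nr1h4, and the GATA motif AGATAA (9.99%) in Nr1h4. The LRH-1 motif CAAGGTCA (1.33%) and the HNF4 motif CAAAGTCCA (0.384%) had 0 exact matches in the members' windows. A match is a description of these letters and does not show a bound site.

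Across the 7 arrays the members fell into different patterns. Fabp6, Slc10a2 and Slc51a were bright in ileum and dim in all 5 colon arrays, Slc51b was bright in ileum, intermediate in DSS colon and lowest in control colon, Nr1h4 followed the same order over a narrower range, Fgf15 was brightest in KO ileum alone, Nr0b2 was dim in most arrays and Gpbar1 was nearly level.

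**Figure D1:**
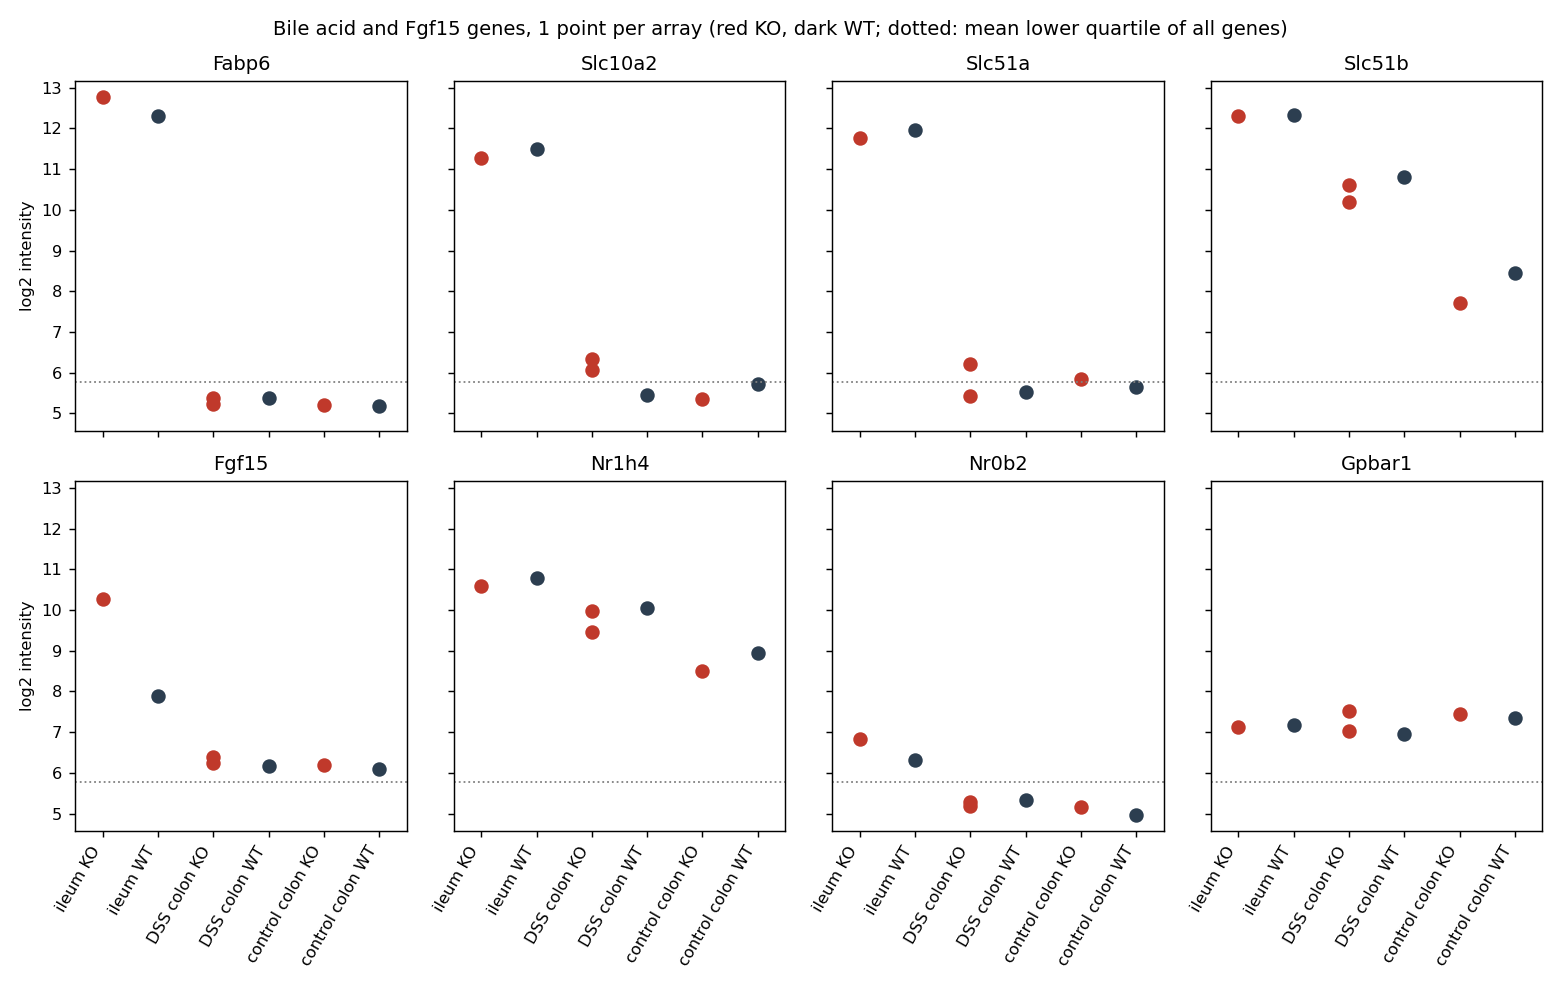
Log2 intensity (y axis) of each of the 8 genes in every array (1 point per array; red KO, dark WT), with groups along the x axis and the mean lower quartile of all genes as a dotted line. The 3 DSS colon points of Slc51b lie at 10.20 to 10.81, between the ileum at 12.30 to 12.32 and the control colon at 7.70 to 8.44, and KO ileum stands apart for Fgf15 at 10.26.

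The comparison of ileum with colon asks how far each step of bile acid handling is a property of the ileum. In the linear model, 7 of the 8 genes were higher in control ileum than in control colon (2 arrays each), where 5.94% of all 19938 genes were higher at an adjusted p under 0.05. The groups of these 7 genes did not overlap, which in this direction held for 25.8% of all genes (28.2% in the lower direction, Gpbar1 among them). Fabp6 had log2 intensities of 12.78 in KO ileum and 12.30 in WT ileum, against 5.22 in KO colon and 5.17 in WT colon. Both ileum arrays were far above both colon arrays, and the difference was 7.34 ± 0.16 log2 units, or 162-fold (SE of the fit; limma adjusted p = 5.33e-06). It ranked 6th by size among all genes.

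The uptake transporter Slc10a2 read 11.28 in KO ileum and 11.49 in WT ileum, against 5.35 in KO colon and 5.72 in WT colon. Its difference was 5.85 ± 0.29 (limma adjusted p = 0.000123), or 57.6-fold. Slc51a, the larger subunit of the basolateral exporter, read 11.77 and 11.96 in KO and WT ileum, against 5.86 and 5.66 in KO and WT colon. It differed by 6.10 ± 0.26, or 68.8-fold (limma adjusted p = 7.43e-05). In control colon, Fabp6, Slc10a2 and Slc51a were under the lower quartile of all genes in both genotypes, so their differences may be understated.

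The partner subunit Slc51b was not confined to the ileum in the same way. It read 12.30 in KO ileum and 12.32 in WT ileum, against 7.70 in KO colon and 8.44 in WT colon. Its difference of 4.24 ± 0.21 (18.9-fold; limma adjusted p = 0.000119) was above the spread between arrays, but its control colon values lay above the lower quartile on both arrays and above the median of all genes (7.26 in KO colon and 7.34 in WT colon). The 2 subunits form a single transporter, and the difference between their tissue contrasts was not tested.

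The signalling members differed less between the tissues. Nr1h4 read 10.60 and 10.78 in KO and WT ileum, against 8.50 and 8.95 in KO and WT colon, a difference of 1.97 ± 0.18 (limma adjusted p = 0.00163). Nr0b2 read 6.83 and 6.32 in KO and WT ileum, against 5.17 and 4.96 in KO and WT colon, with a difference of 1.51 ± 0.17 (limma adjusted p = 0.0031). Its 5 colon values lay below the lower quartile of all genes. Gpbar1, the surface receptor, had a difference of -0.24 ± 0.18 and did not pass (limma adjusted p = 0.505), with 7.13 and 7.17 in KO and WT ileum, against 7.45 and 7.34 in KO and WT colon.

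Fgf15 was higher in ileum by 2.94 ± 0.54 (limma adjusted p = 0.02), but the size rested on 1 array. It read 10.26 in KO ileum and 7.89 in WT ileum, against 6.18 in KO colon and 6.09 in WT colon. The difference within KO was 4.08 and within WT 1.80. It was 1.81 without the KO ileum and 4.07 without the WT ileum, and it did not pass without the KO colon (2.44, limma adjusted p = 0.202) or without the WT colon (3.44, limma adjusted p = 0.0794).

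**Figure D2:**
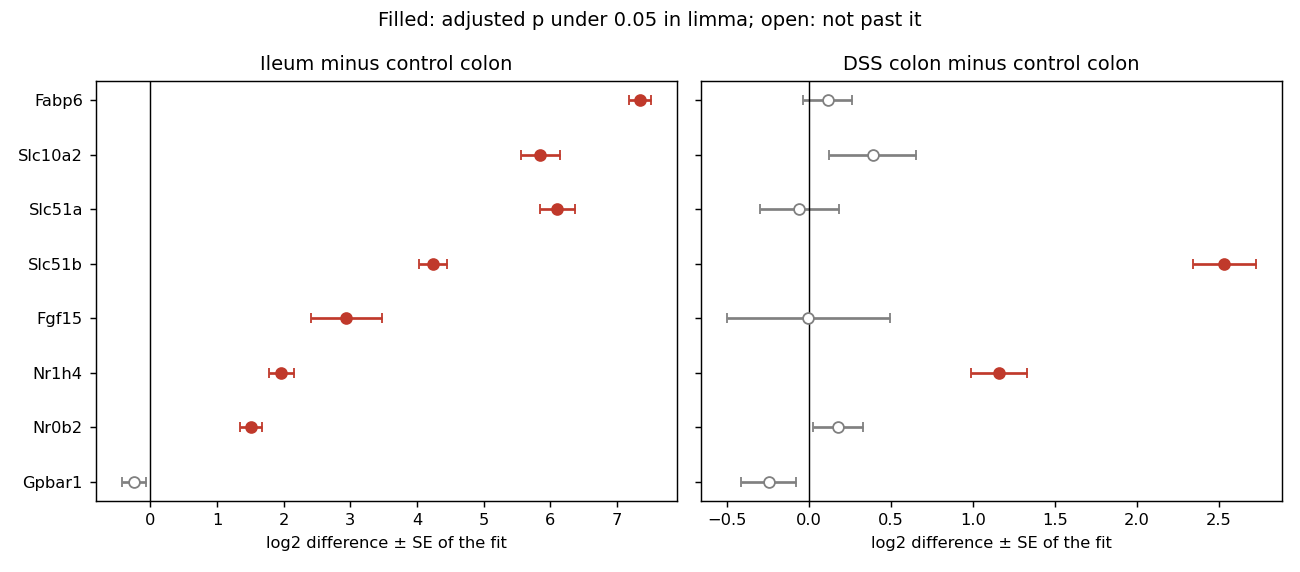
Log2 differences (x axis, with SE of the fit as bars) of the 8 genes (y axis) for ileum minus control colon on the left and DSS colon minus control colon on the right, filled where the limma adjusted p is under 0.05. On the left 7 genes are filled, from 1.51 for Nr0b2 to 7.34 for Fabp6, and on the right only Slc51b at 2.53 and Nr1h4 at 1.16.

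Other genes of the pathway were taken from lists that, like the members, were chosen with earlier results of these data known. Of 15 measured genes of the Fgf15 receptor, its cofactors and the liver arm, 1 was higher and 1 lower in ileum (3.22% of all genes were lower), with a list median of -0.09 beside -0.02 over all genes. Malrd1 (Diet1), which affects Fgf15 output of enterocytes in mice, was the higher one at 6.66 ± 0.31, and the coreceptor gene Klb was the lower one at -1.82 ± 0.19 (limma adjusted p = 0.000101 and 0.00239). In control colon Malrd1 was under the lower quartile of all genes on both arrays, as were Abcc2, Cubn and Sis below, so that these differences are only as exact as the dim end of the arrays. Of 14 measured genes of export and conjugation, 7 were higher and 1 lower, with a list median of 1.42. The cholesterol transporter Npc1l1 (5.91 ± 0.11), the conjugate exporter Abcc2 (3.67 ± 0.35) and the sterol transporter subunits Abcg8 (3.40 ± 0.14) and Abcg5 (3.13 ± 0.37) had the widest differences there. Abcg5 did not pass without the WT colon.

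Of 13 measured nuclear receptors and partners, 3 were higher in ileum and 0 lower, with a median of 0.20. They were the fatty acid receptor Ppara (1.45 ± 0.16), the FXR partner Rxra (1.18 ± 0.16) and the glucocorticoid receptor Nr3c1 (0.96 ± 0.14). Rxra did not pass without the KO ileum, the WT ileum or the KO colon, and Nr3c1 did not pass without the KO ileum or the KO colon. In the list of fatty acid binding proteins and apolipoproteins 7 of 8 were higher, with Apoa1 at 6.54 ± 0.13. In the vitamin B12 list 3 of 5 were higher, with the receptor subunit Cubn at 6.85 ± 0.13, Amn at 1.85 ± 0.15 and Tcn2 at 1.15 ± 0.19; Tcn2 did not pass without either ileum array or without the KO colon. Of the proximal small intestine list 4 of 8 were higher, with sucrase-isomaltase Sis at 8.23 ± 0.14.

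The DSS comparison asks how colitis changes these genes in colon (3 DSS arrays, 2 control arrays). Of the 8 members, 2 passed, Slc51b and Nr1h4, and both rose; of all genes 7.2% rose. In each of these values DSS and the sex pattern cannot be told apart. Slc51b read 10.20 and 10.61 in the 2 KO DSS colons and 10.81 in the WT DSS colon, against 7.70 in KO and 8.44 in WT control colon. All DSS arrays lay above both control arrays, a separation found in this direction in 22.1% of all genes. The difference was 2.53 ± 0.19 log2 units, or 5.79-fold (limma adjusted p = 0.00198), and ranked 85th by size. Within genotype it was 2.49 and 2.91 for the KO arrays, which share 1 control, and 2.37 for WT. It passed in each of the 17 alternative settings, between 2.19 and 2.75.

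The receptor gene Nr1h4 read 9.47 and 9.99 in KO DSS colon and 10.04 in WT DSS colon, against 8.50 in KO and 8.95 in WT control colon. The groups did not overlap, and Nr1h4 rose by 1.16 ± 0.17, or 2.24-fold (limma adjusted p = 0.0123). Within genotype the differences were 0.97 and 1.48 for KO and 1.10 for WT. The call was lost without the WT control colon (1.25, limma adjusted p = 0.0926), without the KO control colon (1.06, limma adjusted p = 0.127) and without the WT DSS colon (1.16, limma adjusted p = 0.0647).

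The rest of the uptake route stayed dim in DSS colon. Fabp6 read 5.22 and 5.39 in KO and 5.38 in WT DSS colon, against 5.22 and 5.17 in KO and WT control colon, and the difference was 0.12 ± 0.15. All 5 of these values lay below the lower quartile of all genes, so no rise of Fabp6 was detectable above the dim end of the arrays. Slc51a, the partner of Slc51b, read 6.21 and 5.43 in KO and 5.53 in WT DSS colon, against 5.86 and 5.66 in KO and WT control colon. Its groups overlapped, and its difference was -0.06 ± 0.24 beside the 2.53 of Slc51b.

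Slc10a2 read 6.06 and 6.33 in KO DSS colon and 5.45 in WT DSS colon, against 5.35 in KO and 5.72 in WT control colon. The KO DSS arrays were the highest of the 5 colon arrays, and the WT DSS array lay within the range of the controls. The overall DSS difference was 0.39 ± 0.27 and did not pass (limma adjusted p = 0.434). The remaining members had differences of 0.18 ± 0.15 for Nr0b2, -0.24 ± 0.17 for Gpbar1 and 0.00 ± 0.49 for Fgf15, with limma adjusted p-values of 0.546, 0.435 and 0.999. Fgf15 was at 6.38 and 6.25 in KO and 6.18 in WT DSS colon, against 6.18 and 6.09 in KO and WT control colon, and the SE of its fit comes largely from the 2 ileum arrays.

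Among the other pathway genes, Klb had the widest difference of its list in DSS colon. In the list of the Fgf15 receptor, its cofactors and the liver arm 3 of 15 genes fell and 0 rose, with a median of -0.05 beside -0.01 over all genes, and 3.43% of all genes fell. Klb, the coreceptor, read 5.74 and 6.17 in KO and 6.18 in WT DSS colon, against 8.32 in KO and 8.53 in WT control colon. Every DSS array was below both control arrays, as in 18.0% of all genes, and Klb fell by 2.38 ± 0.17, or 5.21-fold (limma adjusted p = 0.00158), and passed in each of the 17 alternative settings. The sterol hydroxylase Cyp27a1, an enzyme of the acidic bile acid pathway, fell by 1.09 ± 0.19 (limma adjusted p = 0.0214), and the growth factor receptor Fgfr3 fell by 1.08 ± 0.23 (limma adjusted p = 0.0325). Cyp27a1 did not pass without the WT control colon or the WT DSS colon, and of the 7 leave-one-out fits Fgfr3 passed in 1, that without KO DSS replicate 1. Fgfr4, the main receptor of Fgf15 in liver, read 8.31 and 7.99 in KO and 8.27 in WT DSS colon, against 7.93 and 8.29 in KO and WT control colon, and its groups overlapped.

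In the export and conjugation list 2 of 14 genes fell, the drug pump Abcb1a by 2.44 ± 0.46 and Abcg8 by 0.57 ± 0.13 (limma adjusted p = 0.0252 and 0.0451). Abcb1a read 10.12 in KO DSS replicate 1, 8.75 in replicate 2 and 8.63 in WT DSS colon, against 11.25 in KO and 11.90 in WT control colon. It did not pass without either control colon, KO DSS replicate 2 or the WT DSS colon, and Abcg8 passed when KO DSS replicate 1 was left out and in no other of the 7 leave-one-out fits. Of the nuclear receptors 1 of 13 fell, the vitamin D receptor Vdr, by 0.71 ± 0.12 (limma adjusted p = 0.0203), and the FXR partner Rxra was at -0.001 ± 0.15. Vdr did not pass without either control colon, KO DSS replicate 2 or the WT DSS colon. In the apolipoprotein list 0 of 8 passed in limma (2 at an unadjusted p under 0.05), and in the proximal small intestine list 0 of 8 passed (0 unadjusted). In the B12 list 1 of 5 fell, Tcn2, by 1.12 ± 0.18, and it did not pass without either control colon or the WT DSS colon.

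**Figure D3:**
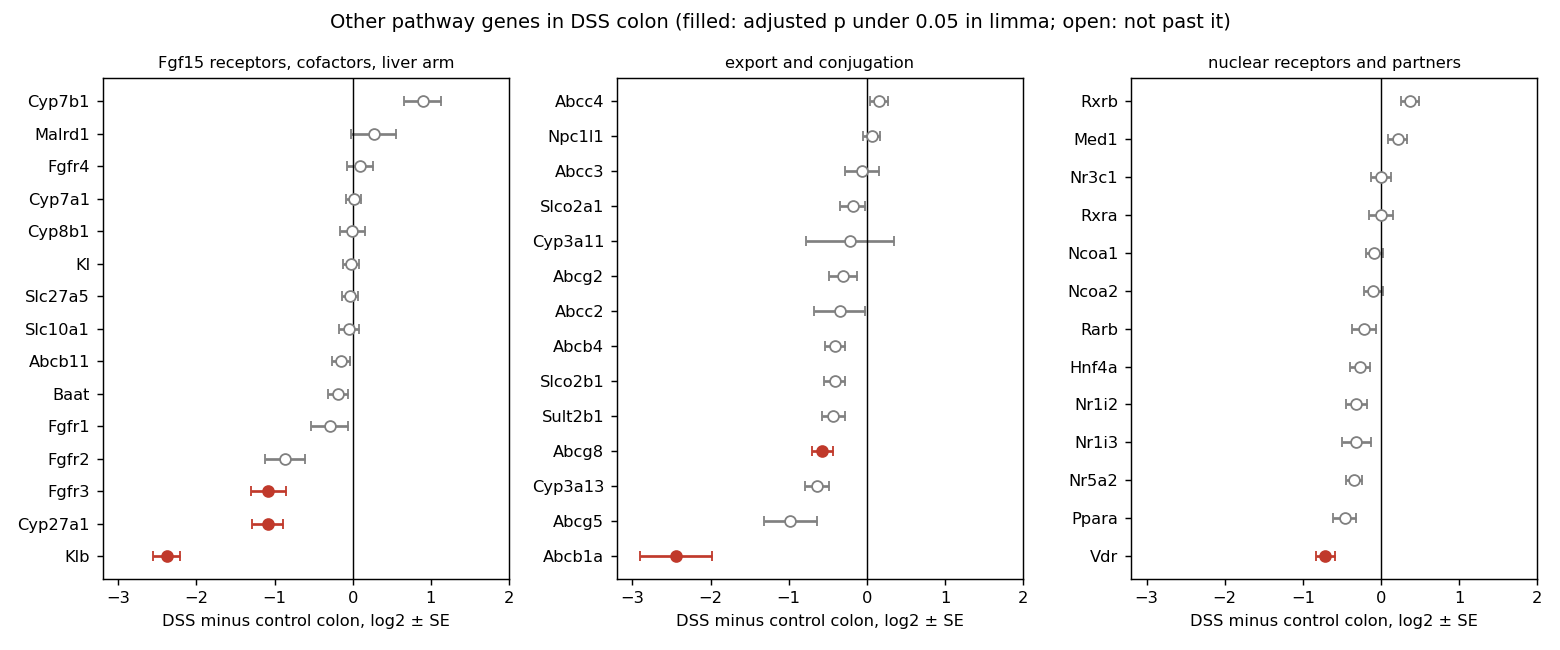
DSS minus control colon log2 differences (x axis, with SE of the fit as bars) of the other pathway genes (y axis) in 3 lists, filled where the limma adjusted p is under 0.05. The filled points are all on the lower side, with Klb at -2.38 and Abcb1a at -2.44 as the widest.

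Cell type markers moved beside these genes. The 10 measured smooth muscle genes all had negative values (3 fell), with summed intensities of 22199 and 11437 in KO and 7482 in WT DSS colon, against 33021 in KO and 34084 in WT control colon. Of 8 leukocyte genes 5 rose, with sums of 3168 and 3722 in KO and 4627 in WT DSS colon, against 2148 and 1619 in KO and WT control colon. Of 10 macrophage genes 4 rose, with sums of 4036 and 4747 in KO and 4535 in WT DSS colon, against 2625 and 2275. Of 8 colon identity genes 5 fell, with the Hox genes Hoxd10 (-2.35 ± 0.31) and Hoxd11 (-1.71 ± 0.26) the widest. Of 10 epithelial genes 1 rose, Krt20, with 0 lower. Of 8 L cell genes 2 fell, Chga and Chgb, while the hormone genes Gcg, Pyy, Insl5, Cck and Nts were not called. Of 7 liver genes 3 fell, Ttr, Cps1 and Alb. Of these, Cps1 was higher in ileum than in control colon (3.97 ± 0.25), so the list does not mark liver alone. With the smooth muscle mean as a covariate, an alternative chosen after seeing the data, the Slc51b difference was 2.19 ± 0.32 (limma adjusted p = 0.0371) and that of Nr1h4 was 0.79 ± 0.27 (limma adjusted p = 0.271). Among the other pathway genes called for DSS, Klb kept its call with that covariate. Cyp27a1, Fgfr3, Abcb1a, Abcg8, Vdr and Tcn2 lost theirs, as did the markers Krt20, Hoxd10 and Hoxd11. Over the 17 alternatives Abcb1a ran from -3.11 to -0.90 and Fgfr3 from -1.52 to -0.53. That mean was lower in each DSS array than in both control colons, so such a fit also removes some of the DSS effect. The marker calls also depended on the setting. The 3 smooth muscle calls (Acta2, Des and Synm) and those of Car2, Chgb and Alb were lost in colon alone. Cd68, C1qa, Tyrobp, Ptprc and Lcp1 did not keep their calls in each fit without a single array. The part of the leukocyte, macrophage and colon identity shifts in these results was not tested.

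The genotype comparison in ileum asks how loss of Atg4b relates to these genes where they are most abundant. It sets 1 KO array against 1 WT array, so that the values come first. Fgf15 had an intensity of 1228 in KO ileum and 237.1 in WT ileum, which is 5.18-fold or 2.37 log2 units. Only 11 of the 19938 genes differed by more between these arrays, and 0.888% of all genes differed by more than 1 log2 unit. Of the 8 members, Fgf15 alone did so. In colon the same difference was 0.20 and 0.07 for the 2 KO DSS arrays and 0.09 for control colon.

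In the model that gives the ileum its own genotype effect, Fgf15 passed narrowly (2.37 ± 0.17, limma adjusted p = 0.0499), 1 of 7 genes (0.0351% of all) that did, 4 of them higher (0.0201%) and 3 lower (0.015%). The spread in that test comes from the colon arrays alone, where Fgf15 ranged only from 6.09 to 6.38, and the ileum arrays are assumed to vary like them. The spread between ileum arrays of 1 genotype was not measured here. The adjusted p ranged from 0.00559 to 0.825 over 13 alternatives and missed the threshold under quantile normalization, with labelled sex, with 6 groups, and without the KO control colon, the WT control colon, KO DSS replicate 2 or the WT DSS colon. The difference between the ileal and the colonic genotype effect was 2.25 ± 0.20 and did not pass (limma adjusted p = 0.157; 0.01% of all genes passed); without KO DSS replicate 1 it did (2.29, limma adjusted p = 0.0244).

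The other 7 members had smaller KO minus WT values in ileum, and their differences from Fgf15 were not tested. Fabp6 was at 12.78 in KO and 12.30 in WT ileum, a difference of 0.48 ± 0.18, and Nr0b2 at 6.83 in KO and 6.32 in WT ileum, a difference of 0.52 ± 0.19. Slc51a and Slc51b had differences of -0.19 ± 0.37 and -0.02 ± 0.26, and the uptake transporter Slc10a2 had -0.22 ± 0.41. Nr1h4 itself was at -0.17 ± 0.27 and Gpbar1 at -0.03 ± 0.27. None of these 7 passed in limma (adjusted p = 1), and at an unadjusted p under 0.05 were Fabp6 (0.0378) and Nr0b2 (0.0386). The spread behind these p-values comes from the colon arrays alone. There all 5 values of Fabp6 and of Nr0b2 lay below the lower quartile of all genes.

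**Figure D4:**
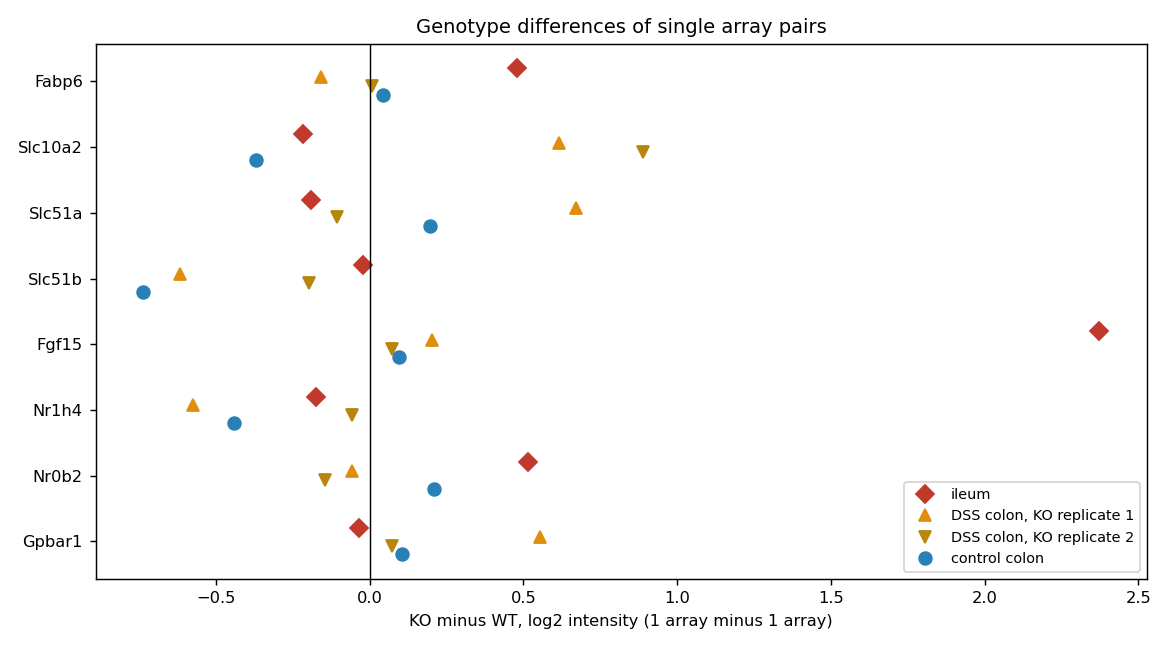
KO minus WT log2 differences of single array pairs (x axis) for the 8 genes (y axis), with ileum as red diamonds, DSS colon KO replicates 1 and 2 against the WT DSS colon as triangles, and control colon as blue circles. Fgf15 in ileum at 2.37 stands apart, and Slc10a2 is positive in both DSS pairs at 0.62 and 0.89 and negative in ileum and control colon.

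Among the other pathway genes in ileum, 1 passed, Cyp3a11, a bile acid hydroxylase that the receptor PXR is known to induce. It read 7.78 in KO and 4.99 in WT ileum, a difference of 2.79 ± 0.17 (limma adjusted p = 0.0499), and it passed in 6 of 13 alternatives. The WT ileum value was under that array's lower quartile of 5.78, as were all 5 colon values, so the size of the difference and the spread behind the test come from the dim end of the arrays. Of the leave-one-out fits it passed only without KO DSS replicate 1. The conjugate exporter Abcc2 read 10.07 in KO and 8.68 in WT ileum (1.40 ± 0.19, limma adjusted p = 0.293), and the basolateral exporter Abcc3 read 9.31 in KO and 10.25 in WT ileum (-0.93 ± 0.20, limma adjusted p = 0.646). The oxysterol hydroxylase Cyp7b1 was at 6.83 in KO and 5.92 in WT ileum. In the Fgf15 receptor list and the nuclear receptor list 0 of 15 and 0 of 13 genes passed (1 and 0 at an unadjusted p under 0.05), with medians of 0.09 and 0.01 beside -0.01 over all genes. In the 2 lists of fat handling and of vitamin B12 uptake 0 of 8 and 0 of 5 passed (2 and 0 unadjusted), and Apoa4 had the widest value there, with 10.39 in KO and 8.64 in WT ileum.

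Markers of other regions and cells also differed between these 2 ileum arrays. The colon identity genes had negative KO minus WT values in 8 of 8, with Car1 at -2.33 ± 0.50, and the sums were 3676 in KO and 7669 in WT ileum. Hoxb13 (-0.15 ± 0.89), Hoxd10 (-0.08 ± 0.51) and Hoxd11 (-0.43 ± 0.44) were each smaller than their SE. Of the proximal small intestine genes 6 of 8 were positive, with Slc2a2 at 1.55 ± 0.17 and Treh at 1.02 ± 0.16, while the iron exporter Slc40a1 stood at -2.50 ± 0.25. Gata4 and Lct of this list were at 0.04 ± 0.18 and -0.26 ± 0.27. The sums of the list were 15304 in KO and 12492 in WT ileum. Macrophage genes were positive in 8 of 10, with sums of 4707 in KO and 3141 in WT ileum, and L cell genes in 7 of 8, with sums of 4727 and 3694. None of these genes passed in limma (2 of the colon identity, 5 of the proximal, 6 of the macrophage and 3 of the L cell genes had an unadjusted p under 0.05), and their part in the Fgf15 value was not tested. Beside these counts, 651 of all 19938 genes had an unadjusted p under 0.05 in this comparison, and the median over all genes was -0.01. The share of all genes with positive values was not counted. The spread in these tests also comes from the colon arrays alone.

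The last comparison sets KO against WT in DSS colon. In limma 0 of the 8 genes and 0% of all genes passed for KO minus WT (2 arrays and 1 array; 776 genes had an unadjusted p under 0.05, Slc10a2 among the members). Slc10a2 had the widest difference, 0.75 ± 0.18 (unadjusted p = 0.00616, limma adjusted p = 1). In the WT DSS colon Slc10a2 read 5.45, under that array's lower quartile of all genes (5.73). Atg4b itself did not pass in this comparison, at 5.39 in both KO arrays and 7.59 in the WT array. The lack of calls therefore does not show equal levels in KO and WT. The KO replicates were not alike, as 514 genes differed by more than 1 log2 unit from WT in replicate 1 and 78 in replicate 2. Slc51b stood at -0.41 ± 0.28, with -0.62 and -0.20 in replicates 1 and 2, and Nr1h4 at -0.32 ± 0.25, with -0.575 and -0.06. Slc51a (0.28 ± 0.33) had 0.67 and -0.11, and Gpbar1 (0.31 ± 0.23) had 0.55 and 0.07. Fabp6, Fgf15 and Nr0b2 lay between -0.10 and 0.14. Smooth muscle genes were positive in 10 of 10 in the same comparison, with 0 of them past the threshold (7 unadjusted). Over all 3 conditions (4 KO and 3 WT arrays), 0 members passed, with values from -0.39 ± 0.16 for Slc51b to 0.80 ± 0.42 for Fgf15 (0.12 without either ileum array), and 0.00502% of all genes passed (720 genes had an unadjusted p under 0.05, Slc51b among the members at 0.049).

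The genes whose profiles were most like those of the members were ranked by the root mean square difference between mean-centred log2 profiles over the 7 arrays. For Fabp6 they were Cubn (0.25 log2 units), Apoa1 (0.33) and the alpha-defensin Defa39 (0.43). For Slc51a they were the neutral amino acid transporter Slc6a19 (0.22), Npc1l1 (0.23) and Malrd1 (0.26), and for Slc10a2 they were Lgals2 (0.25), Myrfl (0.28) and the Paneth cell lysozyme Lyz1 (0.34). These profiles are set mainly by the contrast of 2 ileum arrays with 5 colon arrays.

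The closest profiles to Slc51b were less alike, with the intestinal homeobox gene Isx at 0.56, Bst1 at 0.58 and the acyltransferase Lpcat4 at 0.65. Isx read 11.18 and 10.88 in KO and WT ileum, 9.74 and 8.65 in KO and 9.28 in WT DSS colon, and 6.46 and 6.09 in KO and WT control colon. Ileum, DSS colon and control colon came in the same order as for Slc51b, which follows from choosing genes by likeness of profile. The closest to Fgf15 were Apoa4 (0.26), the serine protease Habp2 (0.31) and Nat8f5 (0.32). Each was brightest in KO ileum, which follows from the same way of choosing. Habp2 read 9.86 in KO ileum and 8.65 in WT ileum, against 6.30 to 6.60 in the 5 colon arrays.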

How the data were processed

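Intestinal RNA was isolated with an RNeasy kit and labelled with an Affymetrix kit for sense targets, as the labels' protocols state. The authors deposited 1 linear intensity per probe set and array (35512 probe sets, 10.4 to 22236.4, array medians 121.4 to 126.45); its summary and normalization are not given in the sources used here. If arrays were equalised, a shift shared by all genes is lost. Log2 of each deposited intensity was computed here. Of the probe sets, 21789 name 1 gene; the brightest per gene on average was kept, leaving 19938 genes.

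Models were fitted with limma 3.58.1 (R 4.3.3) on all 7 arrays, and p-values were adjusted by Benjamini-Hochberg over the 19938 genes, with calls at an adjusted p under 0.05. Tissue, DSS and genotype came from condition plus genotype (3 residual degrees of freedom). KO minus WT in DSS colon and in ileum came from models that add a genotype term for that condition (2 residual degrees of freedom). Values with ± are log2 differences with the SE of the fit.

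The members and the 13 other gene lists were chosen with earlier results of these data known. From each list up to 4 genes with the widest difference were named, and Fgfr4, Rxra, Krt20 and further marker genes were named after their values were seen. The scripts were tested on simulated data. Promoter sequences came from a RefSeq table (GRCm38.p6), in which 7 of the 8 members were matched, all but Fgf15. Alternatives were quantile normalization, centring, leaving out dim genes, averaging or testing all probe sets, a variance trend, labelled sex, 6 groups, only the colon arrays, and each array left out in turn; the smooth muscle covariate was added after seeing the data. In the models with a genotype term for ileum, labelled sex and 6 groups give the same fitted values. They are therefore not separate alternatives there. The number of arrays limits the precision. Figures were drawn with matplotlib 3.10.9.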

Additional observations from a re-analysis of the deposited data

Results flagged for a closer look

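Several members had KO minus WT values of opposite sign in 2 conditions. How many of all genes have such opposite signs was not counted. For Slc10a2 the DSS colon value was above that of control colon, with a control colon less DSS colon difference of -1.12, and above that of ileum, with an ileum less DSS colon difference of -0.97. Seen as the effect of DSS in KO less that in WT, the first of these is 1.12, from 0.84 in KO (mean of 2 arrays) and -0.28 in WT. In the model that lets the genotype effect of DSS colon differ from that of both controls, the Slc10a2 difference was 1.04 ± 0.23 (unadjusted p = 0.00438, limma adjusted p = 1). Nr0b2 had ileum less DSS colon and control colon less DSS colon differences of 0.62 and 0.31, and in the same model -0.47 ± 0.22 for DSS colon less controls (limma adjusted p = 1). The ileum less control colon differences were -0.39 for Slc51a and -0.14 for Gpbar1, and the ileum less DSS colon difference of Gpbar1 was -0.35; against colon as a whole the ileal values differed by -0.44 ± 0.44 and -0.26 ± 0.32 (limma adjusted p = 0.98 for both). Slc10a2 was below the lower quartile of all genes in 3 of the 5 colon arrays.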

How the results depend on the processing

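In ileum minus colon, Slc51b, Fabp6, Slc10a2, Slc51a, Nr1h4 and Nr0b2 kept direction and call in each alternative that measured them, and Gpbar1 did not pass in any; Nr0b2 was not among the genes kept when dim genes were left out. No paired analysis was possible because the labels give replicate numbers in the KO DSS colon group alone. Calls of other pathway genes changed with the setting. For DSS, Cyp27a1, Abcb1a, Abcg8, Vdr and Tcn2 did not pass with 6 groups. Abcb1a and Abcg8 also did not pass with a variance trend, nor Abcg8 and Fgfr3 in colon alone. Abcg8 did not pass under quantile normalization or with labelled sex either. For ileum minus colon, Abcg5 and Nr3c1 did not pass with 6 groups. Counts of genes past the threshold changed with the setting. For ileum minus colon the count was 1826, with 764 in the 6-group model, and 7 members passed. For DSS it was 2120, with 297 in the 6-group model and 229 with the smooth muscle covariate, and 1 member (Slc51b) passed in each of these 2 settings. For KO minus WT in ileum 7 genes passed, with 2 under quantile normalization, 12 with centred arrays, 27 with a variance trend and 0 with labelled sex or 6 groups; 1 member (Fgf15) passed, and 0 under quantile normalization, labelled sex or 6 groups. For the ileum less colon genotype difference 2 genes passed, with 6 under centring, 8 with a trend and 0 with labelled sex or 6 groups. For KO minus WT in DSS colon 0 passed, with 3 under centring and 10 with a trend, and over all conditions 1 passed, with 0 in 6 groups or in colon alone.

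Leaving out single arrays gave 660 to 2418 genes and 6 to 7 members for ileum minus colon, 183 to 3549 genes and 1 to 2 members for DSS, 0 to 1 gene for genotype, 0 to 538 genes for KO minus WT in DSS colon, 0 to 59 genes and 0 to 1 member in ileum, and 0 to 15 genes and 0 to 1 member for the ileum less colon difference.

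The sign turned in values that did not pass. For DSS minus control colon, Slc51a was 0.0017 under quantile normalization and 0.67 with the muscle covariate (-0.28 to 0.11 without single arrays), and Fgf15 was 0.0567 under quantile normalization, 0.11 with labelled sex, 6 groups or colon alone (-0.55 to 0.45 without single arrays). With the muscle covariate Fgf15 was -0.80, Fabp6 -0.25, Nr0b2 -0.094 and Gpbar1 0.27; without single arrays Fabp6 ran from -0.0194 to 0.19 and Nr0b2 from -0.0087 to 0.25. For genotype over all conditions, Fabp6 was -0.0243 in colon alone (-0.0243 to 0.26 without single arrays), Slc10a2 ran from -0.29 to 0.34 and Slc51a from -0.0332 to 0.25; Fgf15 kept its sign, from 0.12 to 1.23. For KO minus WT in ileum with labelled sex, Slc10a2 was 0.34, Slc51b 0.14 and Gpbar1 0.0698. The ileum less colon value of Slc10a2 with labelled sex was 0.15 (-0.97 to 0.15 without single arrays). By the labels, sex is reversed between KO and WT and, within each genotype, between DSS and control arrays. As a covariate it therefore carries the difference between the genotype effects of DSS colon and control colon. The shifts of the ileal values with labelled sex follow from this design. For KO minus WT in DSS colon, Fabp6 ran from -0.16 to 0.0069 and Slc51a from -0.11 to 0.67 without single arrays. Apart from the shifts of the ileal values with labelled sex, the cause of these changes was not tested.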
